A study of Mus musculus with 4 samples.

Results

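The genes described here are 8 regulators of mRNA stability, taken as a set for the response to the cytokine IL17A. They are Zc3h12a, Zc3h12c, Rc3h1, Zfp36, Zfp36l1, Zfp36l2, Arid5a and Elavl1. They were chosen by symbol, with earlier results of these data known. They comprise 8 of the 26715 genes and 14 of the 41174 probes on the arrays. The study asked how medium taken from cultured adipose-derived stem cells (ADSC medium) acts on hepatic stellate cells exposed to IL17A. RNA of 4 cultures was labelled with Cy3 and hybridised to 1-colour Agilent arrays of mouse genes. The cultures were untreated, given recombinant murine IL17A, given ADSC medium, or given IL17A plus ADSC medium, and each group has 1 array. All 4 cultures were of IMS/N, a single SV40-immortalized line derived from stellate cells of normal 129/Sv mouse liver. The medium came from stem cells of the inguinal subcutaneous fat of male C57BL/6J mice aged 8 to 10 weeks. The sources used here give neither doses nor times of treatment.

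With 1 array a group a difference between 2 arrays has no replicate check and no p-value, and "higher" and "lower" describe 2 arrays. A p-value is given only for IL17A in a model over all 4 arrays with slide as a block. Slide 1 carried the untreated array and that of IL17A, and slide 2 the 2 arrays with ADSC medium. The IL17A comparisons therefore stay within a slide, while ADSC medium and slide cannot be told apart. Levels are log2 signals after quantile normalization over the 4 arrays. A gene counted as higher or lower where its levels differed by at least 1 on the log2 scale, which is 2-fold, and the brighter of the 2 arrays showed the probe well above background. The measure of error used here was the scatter among spots of the same probe. It gave an SD of a log2 difference of 0.064 at levels of 7 and above, 0.12 from 5 to 7 and 0.22 below 5, or 0.43 below 5 with dim spots kept. This spot SD holds no variation between cultures. Each multiple of it uses the SD class of the mean level of the arrays compared. The files also hold an error for each signal, estimated by the software Feature Extraction. For the brighter Zfp36 probe in untreated cells it was 34.5 on a signal of 345.0. The multiples of the spot SD do not use that error.

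Between 58.1% and 60.5% of the 43379 spots of an array were well above background and 0 were saturated. Of 14 stellate cell markers, 8 to 11 were well above background, with Col1a1, Col1a2, Acta2 and Vim at log2 levels of 13.24 to 15.63, while Gfap, Reln and Hand2 were well above background on no array. The summed signal of these 14 markers was 132000 in untreated cells, 86600 with IL17A, 102000 with medium and 75000 with both. Of 7 hepatocyte markers 1 or 2 were well above background, with a summed signal of 15.9 to 28.9, and Alb was well above background on no array. Of 10 macrophage and leukocyte markers 5 or 6 were (117 to 177), with Adgre1 and Clec4f on no array, and Csf1r was past the 2-fold rule for IL17A (log2 levels of 3.15 and 4.56). Of 10 endothelial and bile duct markers 5 were (598 to 1170), with Pecam1 and Cdh5 on no array, and Krt19 was past the rule in the lower direction (9.38 and 7.99). Other markers were past 2-fold where medium was compared. With medium against untreated Pdgfrb (2.38-fold) and Col3a1 (2.32-fold) were lower and Marco (at least 4.36-fold) and Serpina1d (at least 2.33-fold) higher, and with IL17A in the presence of medium Marco (at least 4.28-fold), Serpina1d (at least 2.29-fold) and Krt19 (4.64-fold) were lower and Lrat (at least 2.58-fold) and Ptprc (at least 2.4-fold) higher. With medium added to IL17A Lrat was higher (at least 2.14-fold) and Col3a1 lower (2.9-fold). With both treatments against neither 5 stellate markers were past the rule, Lrat higher (at least 2.83-fold) and Pdgfrb, Col1a1, Col1a2 and Col3a1 lower (2.04-fold to 2.81-fold), as were Ptprc (at least 2.62-fold) and Csf1r (2.21-fold), both higher, and Krt19 (4.7-fold), lower. The part of these markers in the results on the regulators was not tested. None of 13 housekeeping genes was past 2-fold in any of the 5 comparisons, and their median difference lay between -0.033 and 0.068.

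As background, many cytokine and chemokine mRNAs are short-lived because proteins bind elements in their 3′ untranslated regions. Regnase-1 (Zc3h12a) is an endonuclease that cuts stem-loops, Roquin-1 (Rc3h1) recruits the deadenylase to similar stem-loops, and the ZFP36 family (tristetraprolin or TTP and its paralogs) binds AU-rich elements and does the same. Arid5a and HuR (Elavl1) bind such transcripts and protect them. IL17A signals through its receptor and the adaptor Act1 (Traf3ip2), which both activates transcription and prolongs the life of target mRNAs. Regnase-1 is itself a product of this signalling and limits it.

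IL17A was associated with a large difference in 1 of the 8 regulators, Zc3h12a, which was 16.6-fold higher than in untreated cells. Of 15868 genes measured in this comparison 2.17% were higher by 2-fold or more and 2.29% lower, while 1 of the 8 regulators was higher and 0 were lower. The other regulators stayed within 2-fold: Zfp36l1, Arid5a and Zc3h12c differed by 0.58 to 0.70 on the log2 scale, Zfp36l2, Zfp36 and Rc3h1 by 0.35 to 0.41, and Elavl1 by -0.068. The median of the 8 differences was 0.49, beside 0.0 for all genes, and 7 of 8 lay above 0, beside 49.3% of all genes. The regulators were chosen with earlier results of these data known, so these set values are a description only.

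The IL17A difference was also estimated once over the 4 arrays with slide as a block, which takes it as equal on both slides and leaves 1 residual degree of freedom. Zc3h12a was 16.1-fold higher, at 4.01 on the log2 scale with a standard error of 0.13 and an adjusted p of 4.1e-05 from limma with Benjamini-Hochberg adjustment over 15469 genes. With 75th percentile scaling and normexp correction its adjusted p from limma was 0.004 and 0.0037. Of all genes 2.53% passed an adjusted p of 0.05 in the higher direction and 3.79% in the lower, and of the 8 regulators 4 were higher and 0 lower. The other 3 were Zfp36l1 (0.54, adjusted p from limma 0.021), Zc3h12c (0.59, 0.042) and Rc3h1 (0.37, 0.049). They did not pass under 75th percentile scaling, where the adjusted p from limma was 0.11, 0.087 and 0.10, nor under normexp correction, where it was 0.068, 0.071 and 0.098. Arid5a (0.42), Zfp36 (0.21), Zfp36l2 (-0.11) and Elavl1 (-0.048) had adjusted p values from limma of 0.22 to 0.93. Each group still has 1 array. A gene's own spread in this model is the difference between the slides' IL17A differences, and limma draws it towards the spread of other genes. That shared part carried a median of 5.73 prior degrees of freedom beside the 1 residual, so the standard errors rest largely on other genes.

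**Figure D1:**
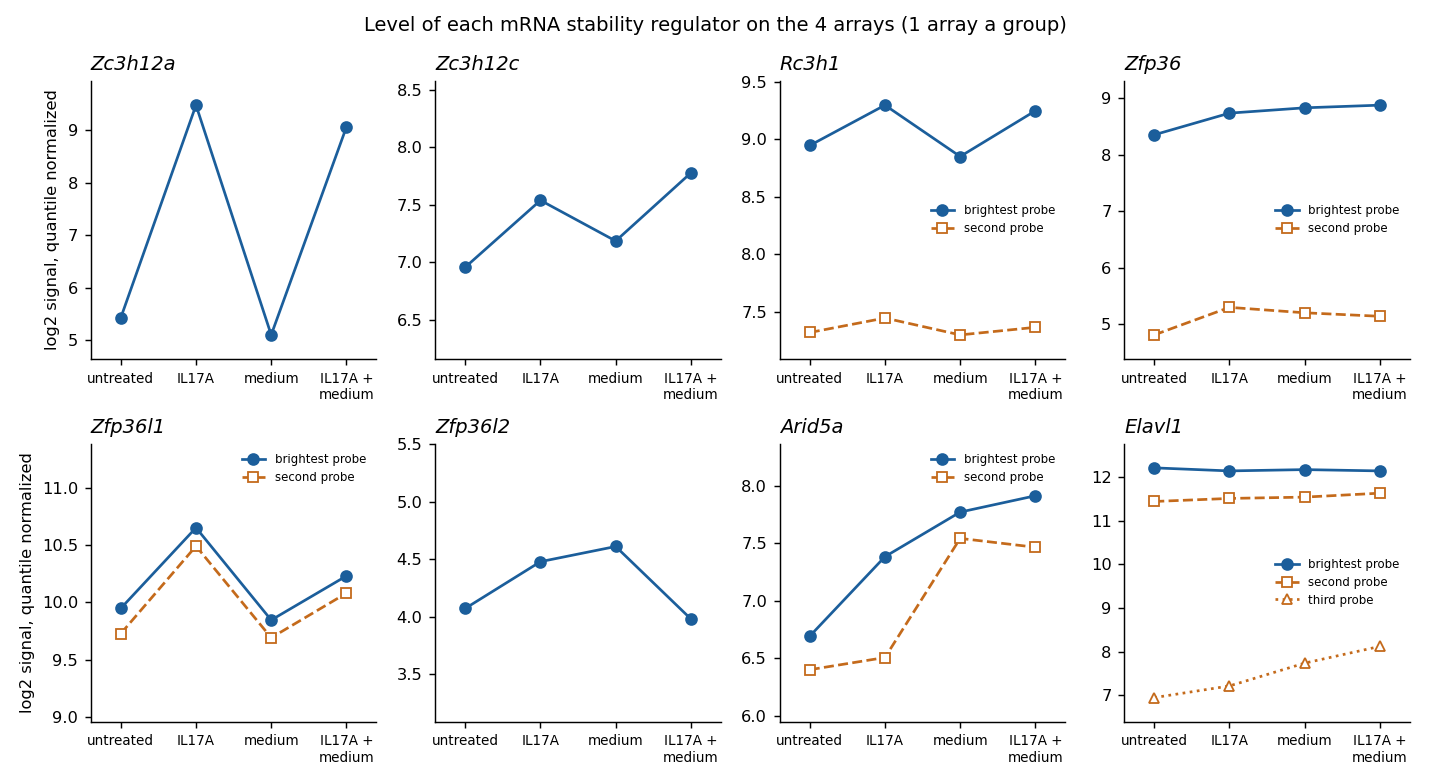
Log2 signal after quantile normalization (y axis, a different range in each panel) on the 4 arrays (x axis, 1 array a group) for the 8 regulators; filled circles are the brightest probe of a gene, open symbols its other probes, and lines only guide the eye. Zc3h12a was at 9.48 and 9.06 on the IL17A arrays against 5.42 and 5.10 on the others, Arid5a was highest on the medium arrays, and the probes of Elavl1 differed in their pattern.

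Zc3h12a encodes Regnase-1, and its 1 probe lies at chr4:124795870-124795929 on the minus strand of mm9, at position 2533 of the transcript in the array's annotation. The 250 bases before its RefSeq start site (GRCm38.p6, chr4:125127882-125128131, minus strand) are shown because it is the regulator that differed most. Capitals mark GC boxes, GGGCGG on either strand, a motif picked after the values were seen.
Zc3h12a promoter: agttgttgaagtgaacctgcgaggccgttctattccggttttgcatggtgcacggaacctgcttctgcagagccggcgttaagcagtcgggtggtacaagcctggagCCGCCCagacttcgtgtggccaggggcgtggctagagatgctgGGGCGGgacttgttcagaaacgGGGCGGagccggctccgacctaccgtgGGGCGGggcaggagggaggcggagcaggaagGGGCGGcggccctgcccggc
These 250 bases hold 5 GC boxes and are 66.4% G and C, beside a median of 52.4% for all promoters of the table. A GC box occurs in 35.7% of the 32851 RefSeq promoter windows of 300 bases, which add the first 50 bases after the start. Neither the NF-kB-like motif GGANNTTCC (4.26% of windows, both strands) nor the C/EBP motif TTGCNNAA (10.8%) matched within the Zc3h12a window. The promoters of 7 of the 8 regulators were matched, and Rc3h1 also had 5 GC boxes in its upstream 250 bases, Arid5a 3, Zfp36 1, Zc3h12c 1 and 0 at its 2 start sites, and Elavl1 and Zfp36l1 0. Among these 7 genes the C/EBP letters matched in 1, the second of the 2 start sites of Zc3h12c, and the NF-kB-like letters in 0.

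The processed signal of Zc3h12a was 47.1 in untreated cells, 702.8 with IL17A, 31.5 with medium and 527.5 with both. The errors that Feature Extraction estimates for these signals were 4.93, 70.3, 3.41 and 52.8. After normalization the log2 levels were 5.42, 9.48, 5.10 and 9.06. The IL17A arrays were thus far above the others, by 4.05 without medium and by 3.96 with it, or 63.6 and 62.2 times the spot SD. That SD is the 0.064 for the mean of the 2 levels, while the levels without IL17A fall in the class of 0.12. Only 13 and 11 genes had a higher difference, which placed Zc3h12a at rank 14 of 15868 and 12 of 16080. Counting both directions, 0.113% and 0.0995% of genes had a difference larger in size. With normexp background correction, which adds an offset of 50 to every signal, the folds were 7.67 without and 5.82 with medium in place of 16.6 and 15.6. Across slides Zc3h12a was lower with medium, by 0.33 in cells without IL17A and by 0.42 in cells with it (2.78 and 6.56 times the spot SD), neither past 2-fold. The authors' deposited table of probes that were higher with IL17A than in untreated cells holds this probe among 861, which are 2.09% of the probes on the array.

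Zc3h12c encodes Regnase-3, a relative of Regnase-1 with the same kind of nuclease domain. Its 1 probe (mm9 chr9:51920254-51920313, minus strand) gave log2 levels of 6.96 in untreated cells, 7.54 with IL17A, 7.18 with medium and 7.78 with both. Both IL17A arrays were above both others, and the IL17A difference was 0.58 without and 0.59 with medium, about 9 times the spot SD (9.13 and 9.29). Among all genes, 5.77% and 7.46% had a higher difference.

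Rc3h1 encodes Roquin-1. Its brighter probe (mm9 chr1:162904956-162905015, plus strand, transcript position 10859) gave log2 levels of 8.95, 9.30, 8.85 and 9.25 in untreated cells, with IL17A, with medium and with both. The order of the arrays was that of Zc3h12a, with IL17A differences of 0.35 and 0.40, but they stayed under 2-fold. Its second probe covers 1918 bases of the genome for 60 bases of sequence and so spans an exon junction, at transcript position 3634. There the levels were 7.32, 7.44, 7.30 and 7.36, and the IL17A differences of 0.13 and 0.066 were 1.97 and 1.03 times the spot SD.

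Zfp36 encodes TTP, the founding member of the family that binds AU-rich elements, and its own mRNA carries such elements. Its brighter probe (mm9 chr7:29162132-29162191, minus strand) gave log2 levels of 8.35 in untreated cells, 8.73 with IL17A, 8.83 with medium and 8.87 with both. Untreated cells were lowest and the other 3 arrays lay within 0.14 of each other. The IL17A difference was 0.38 without medium and 0.047 with it, the second under 1 spot SD (0.734 times). The dimmer probe, 3′ of it, gave 4.81 in untreated cells and 5.14 to 5.30 on the other arrays, with IL17A differences of 0.49 and -0.062.

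Stretches of 30 bases from probes of 2 regulators are shown because they hold the pentamer ATTTA, the core of AU-rich elements, written in DNA letters and 5′ to 3′ as on the array, with the pentamer in capitals.
Zfp36 dimmer probe: ATTTAttgtattaagattttatagtATTTA
Zc3h12a probe: cgagATTTAaatattttaaatgaaaaaggt
The pentamer occurs in 9.16% of all 41174 probes and in 2 of the 14 probes of the regulators. The match is a description of the probed bases and not of binding.

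Zfp36l1 encodes BRF1, a TTP paralog that also binds AU-rich elements. Its brighter probe (mm9 chr12:81209088-81209149, minus strand) gave log2 levels of 9.95 in untreated cells, 10.65 with IL17A, 9.85 with medium and 10.23 with both. IL17A alone was highest. The IL17A difference was 0.70 without medium and 0.38 with it, and the second probe gave 0.76 and 0.38. With medium added to IL17A the level was lower by 0.42 on the first probe and by 0.41 on the second, across slides and within 2-fold. Of its 2 probes, the authors' deposited table of probes higher with IL17A than untreated holds 1, the brighter.

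Zfp36l2 encodes BRF2, a further TTP paralog. Its 1 probe (mm9 chr17:84585789-84585848, minus strand) was dim, with processed signals of 19.1, 20.4, 22.2 and 17.1 in untreated cells, with IL17A, with medium and with both. The log2 levels were 4.07, 4.48, 4.61 and 3.98. The IL17A difference was 0.41 without medium and -0.63 with it, or 1.85 and 2.86 times the spot SD of 0.22, and the first is under the SD of 0.43 that keeps dim spots. No order of these 4 levels is therefore drawn.

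Arid5a encodes the protein that competes with Regnase-1 for some of its targets and protects them. Its brighter probe (mm9 chr1:36376575-36376634, plus strand) gave log2 levels of 6.69 in untreated cells, 7.38 with IL17A, 7.77 with medium and 7.91 with both. Both medium arrays were above both others. Arid5a was 2.11-fold higher with medium than in untreated cells and was the only regulator past 2-fold in that comparison, in which 2.45% of 16100 genes were higher by 2-fold or more, 2.98% were lower, and 1 regulator was higher and 0 lower. Its second probe, 3′ of the first at chr1:36379611-36379670, gave 6.40, 6.51, 7.54 and 7.47.

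Both Arid5a probes gave the medium difference, 1.08 and 1.14. They parted on IL17A, at 0.69 and 0.11 without medium and at 0.14 and -0.078 with it. With normexp correction the medium difference of the brighter probe was 0.71 and no longer passed 2-fold. Untreated and medium arrays lay on different slides, so the difference of Arid5a between slides and that between media cannot be told apart. The markers Pdgfrb, Col3a1, Marco and Serpina1d were past 2-fold in the same comparison, and their part in it was not tested.

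Elavl1 encodes HuR, which binds AU-rich and U-rich elements and protects transcripts from decay. Its brightest probe (mm9 chr8:4288445-4288504, minus strand, transcript position 2307) gave log2 levels of 12.21, 12.14, 12.17 and 12.14 in untreated cells, with IL17A, with medium and with both. All differences on this probe were at most 1.07 times the spot SD. A second probe at transcript position 1139 gave 11.44, 11.51, 11.54 and 11.63. The third, at position 5238 (chr8:4285514-4285573) and so the most 3′, gave 6.95, 7.22, 7.74 and 8.12, and was 2.25-fold higher with both treatments than in untreated cells. The probes of Elavl1 therefore disagreed, and the gene's value is that of the brightest probe.

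**Figure D2:**
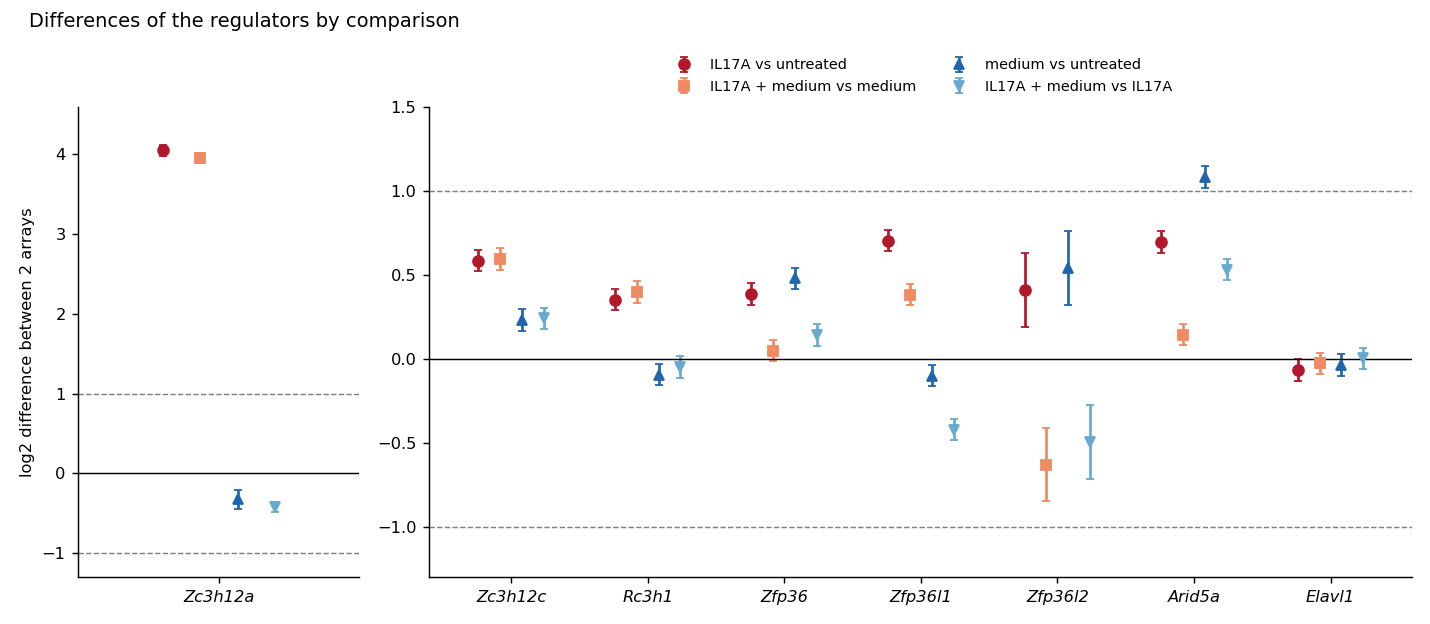
Log2 difference between 2 arrays (y axis) for each regulator's brightest probe in 4 comparisons (symbols), with bars of 1 spot SD and dashed lines at 2-fold; Zc3h12a has its own y axis. Zc3h12a stood at 4.05 and 3.96 for IL17A without and with medium, and Arid5a at 1.08 for medium was the only other point outside the dashed lines.

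ADSC medium was next compared with its absence in cells that also received IL17A, the comparison closest to the question of the study. None of the 8 regulators was past 2-fold in either direction when medium was added to IL17A, in which 3.22% of 15890 genes were higher by 2-fold or more and 3.11% lower. Their median difference was -0.025, beside 0.021 for all genes. Zfp36l2 (-0.50), Zfp36l1 (-0.42) and Zc3h12a (-0.42) were the lowest and Arid5a (0.53) the highest. The authors' deposited table of probes higher with IL17A than with IL17A plus medium has 1193 probes (2.9% of those on the array) and holds 0 of the 14 probes of the regulators.

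In cells with medium, IL17A again left Zc3h12a as the 1 regulator past 2-fold and 0 were lower, in a comparison in which 2.86% of 16080 genes were higher by 2-fold or more and 1.82% lower. The median of the 8 differences was 0.26, beside -0.030 for all genes. With both treatments against neither, which differs in slide as well, 2 regulators were higher, Zc3h12a (12.4-fold) and Arid5a (2.33-fold), and 0 were lower. With normexp correction the folds were 5.17 and 1.78, and Arid5a no longer passed 2-fold. There 3.39% of 16241 genes were higher by 2-fold or more and 4.29% lower. These 5 comparisons share arrays, so their values are not independent.

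The IL17A difference with medium minus that without it compares the 2 slides' own differences. It was -0.091 for Zc3h12a, 0.010 for Zc3h12c and 0.046 for Rc3h1, all within about 1 of the spot SD for such a value (1.01, 0.111 and 0.51 times). Zfp36 was at -0.34, Zfp36l1 at -0.32 and Arid5a at -0.55, or 3.73, 3.56 and 6.11 times that SD, although the second probe of Arid5a gave -0.18 (1.1 times). Zfp36l2, on a dim probe, was at -1.04, or 3.33 times that SD, which leaves dim spots out. Elavl1 was at 0.040, or 0.444 times. On the main scale the nucleases and Roquin-1 thus had nearly equal IL17A differences on both slides, while those of Zfp36, Zfp36l1 and the brighter Arid5a probe were smaller with medium. For Zc3h12a this depended on the processing. Its IL17A differences without and with medium were 4.0 and 4.04 with 75th percentile scaling, but 2.94 and 2.54 with normexp correction. Whether the IL17A differences with and without medium part beyond the variation between cultures was not tested.

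**Figure D3:**
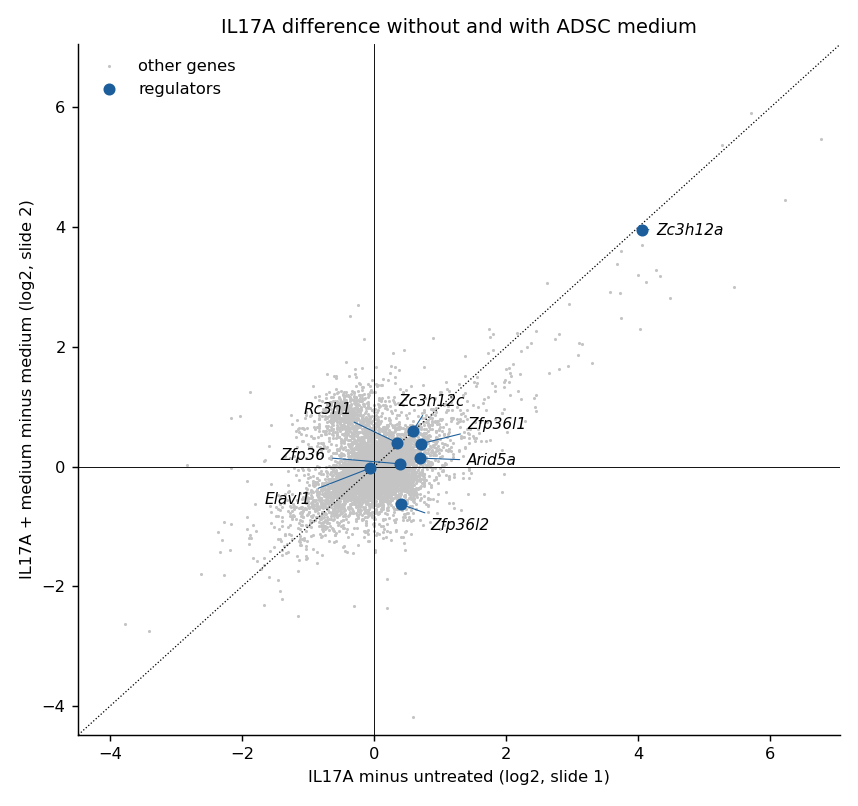
IL17A difference with medium (y axis, log2) against that without medium (x axis, log2) for 14477 genes well above background on all 4 arrays (grey) and the 8 regulators (blue); the dotted line marks equal differences. Zc3h12a lay close to the dotted line at 4.05 and 3.96, while Zfp36l2, at 0.41 and -0.63, was the regulator farthest from it.

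Genes that control the regulators were mostly within 2-fold. Beside 2.17% of all genes higher and 2.29% lower with IL17A, 1 of 21 such genes, all measured, was past 2-fold, and it was higher. That gene, Traf3ip2, encodes Act1, the adaptor that links the IL17 receptor to the kinases acting on Regnase-1, and its log2 levels were 7.64 in untreated cells, 8.68 with IL17A, 7.82 with medium and 8.35 with both. It was 2.07-fold higher with IL17A and 1.44-fold higher with IL17A in the presence of medium. The median of the 21 genes was 0.052 for IL17A.

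Of 27 other RNA stability proteins on the array, 25 were measured, with IL17A medians of 0.018 without medium and 0.058 with it. In these comparisons 2.17% and 2.86% of all genes were higher and 2.29% and 1.82% lower, while 0 of the 25 were past 2-fold. With medium against untreated 2 were lower, Igf2bp1 (2.03-fold) and Elavl3 (at least 2.03-fold, with its dim side at the lowest signal well above background on that array). Against untreated, cells with both treatments had Igf2bp1 2.8-fold and Igf2bp3 2.09-fold lower. These 3 genes were named after their values were seen.

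The decay machinery itself was within 2-fold throughout. Of 34 genes of deadenylation and decapping and 16 of the exosome, 0 were past 2-fold in any of the 5 comparisons. Of all genes 1.82% to 4.29% were past 2-fold in a given direction, so lists this short would hold few. The exosome genes had a median difference of 0.25 with medium against untreated, with 14 of 16 above 0, beside a median of 0.039 and 55.4% above 0 for all genes. Their median for IL17A alone was 0.070, also with 14 of 16 above 0.

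Transcripts on which these regulators are known to act held the largest IL17A differences of the 12 lists. Several of them are IL17A targets by other routes too and stand in more than 1 list, and the lists were drawn up with earlier results of these data known, so their counts support nothing about the regulators. Of 19 transcripts degraded by Regnase-1 or Roquin, 14 were measured with IL17A, of which 7 were higher and 0 lower, with a median of 0.90, and with medium present 7 of 13 were higher. Of 19 degraded by TTP, 13 were measured, of which 8 were higher and 0 lower, with a median of 1.2, and with medium present 6 of 12 were higher. Of 13 transcripts stabilised by Arid5a or HuR, 12 were measured, of which 6 were higher and 1, Ccnd1 (cyclin D1), was 2.67-fold lower, and with medium present 6 of 12 were higher.

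Il6, the cytokine on which Regnase-1, TTP and Arid5a all act, had log2 levels of 5.04 in untreated cells, 11.80 with IL17A, 4.99 with medium and 10.47 with both. It was 108-fold higher with IL17A, 44.7-fold higher with IL17A in the presence of medium, and 2.52-fold lower when medium was added to IL17A. Cxcl1, a neutrophil chemokine whose mRNA HuR and Act1 protect, had levels of 9.76, 15.02, 9.08 and 14.46. Its IL17A fold was 38.3 without and 41.7 with medium. Cxcl5, a related chemokine, was at 8.28, 13.98, 7.15 and 13.06, or 51.8-fold and 60.3-fold higher.

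Nfkbiz encodes IκBζ, a cofactor that Regnase-1 and Arid5a are known to regulate, and had levels of 7.19, 10.93, 7.44 and 11.04. Its IL17A difference was 3.74 without and 3.60 with medium. Lcn2, the iron-binding lipocalin-2, was not well above background without IL17A and had levels of 8.00 with IL17A and 5.35 with both. It was at least 50.5-fold higher with IL17A and at least 7.33-fold higher with medium present, and 6.29-fold lower when medium was added to IL17A. A bound is against the lowest signal well above background on the dim array.

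Ier3, an immediate early gene, differed by 2.74 without medium and 2.14 with it on the log2 scale. Ptgs2 (cyclooxygenase-2) differed by 1.83 and 1.27, and Ccl2, a monocyte chemokine, by 1.74 and 2.30. Csf2, a growth factor of myeloid cells, was at least 6.2-fold higher with IL17A and 6.09-fold higher with IL17A plus medium than with medium. When medium was added to IL17A, 2 of the 14 measured Regnase-1 or Roquin transcripts were lower, Il6 and Lcn2, and 2 of the 13 TTP transcripts, Il6 and Cxcl2 (at least 2.06-fold). The same Il6 and Lcn2 were the 2 of 12 lower in the Arid5a or HuR list, and 0 transcripts of the 3 lists were higher. With medium against untreated, across slides, Fos (3.82-fold) and Myc (2.03-fold) were higher and Ccl2 (2.03-fold) and Cxcl5 (2.2-fold) lower. With both treatments against neither, 7 of 13 Regnase-1 or Roquin transcripts and 9 of 12 TTP transcripts were higher. In the Arid5a or HuR list 7 of 12 were higher, and 0 transcripts of the 3 lists were lower. Ccnd1, Cxcl2 and Fos were named after their values were seen.

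**Figure D4:**
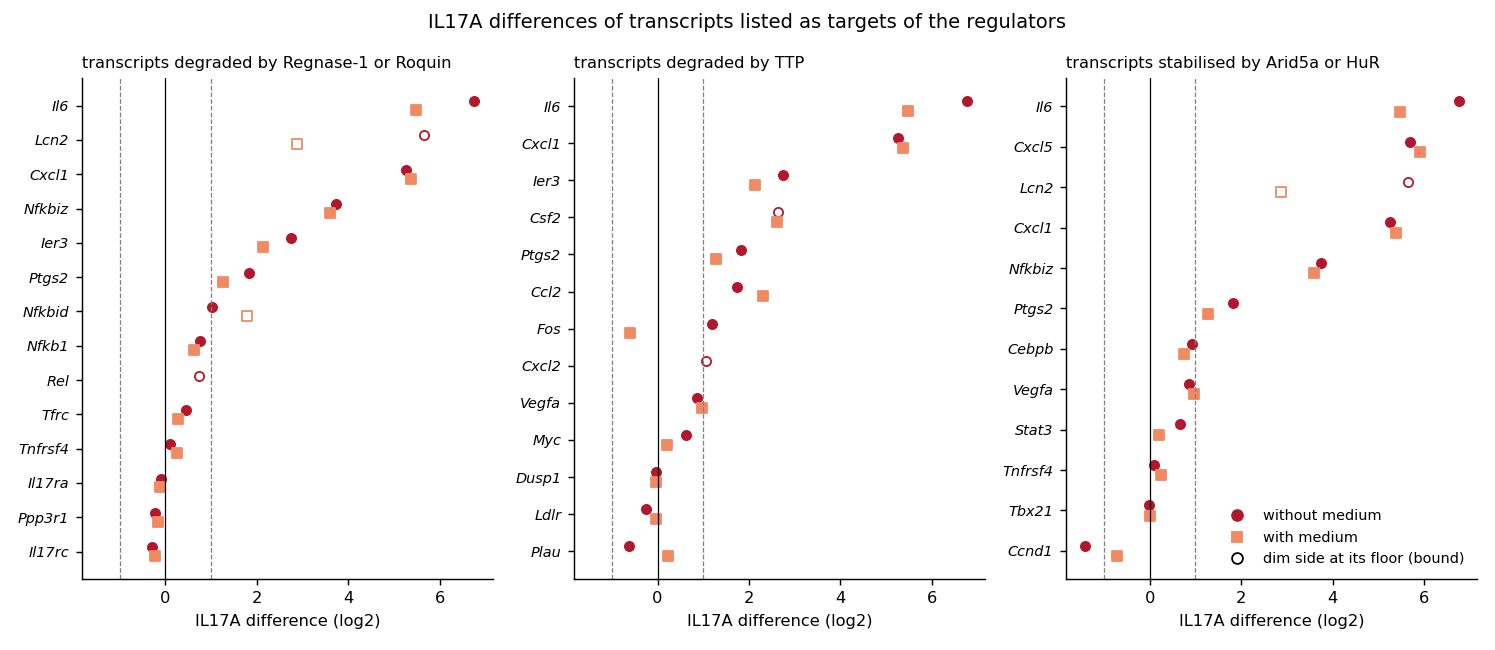
IL17A difference (x axis, log2) without medium (circles) and with medium (squares) for the measured transcripts of 3 lists of known targets (y axis, ordered by the difference without medium); open symbols have their dim side at its floor and are bounds, and dashed lines mark 2-fold. Il6 was at 6.76 without and 5.48 with medium, and Cxcl1 at 5.26 and 5.38.

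Genes with the pattern most like Zc3h12a over the 4 arrays were sought among 11463 genes well above background on all of them whose probe carries a RefSeq mRNA accession and whose name is not that of a clone, a predicted gene or an accession, by the Euclidean distance between centred log2 levels. The nearest were Cebpd (distance 0.503), Slc39a4 (0.586) and Nfkbiz (0.65). Cebpd, which encodes the transcription factor C/EBPδ, had levels of 11.26, 14.94, 10.94 and 14.32, and Slc39a4, a zinc transporter, 4.29, 8.62, 4.48 and 7.66. Both were higher on the IL17A arrays than on the others. For Arid5a the nearest were Myc (0.0726), Fzd9 (0.0967) and Eda2r (0.135). Myc, the transcription factor, had levels of 10.78, 11.40, 11.80 and 12.02, lowest in untreated cells and highest with both treatments as for the brighter Arid5a probe. The search rested on that probe. The second Arid5a probe was highest with medium alone, at 7.54 beside 7.47 with both.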

How the data were processed

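Total RNA of IMS/N cells was measured on 4 Agilent arrays, 1 per group, grouped by sample title. The intensity columns were deposited as linear signals from which Feature Extraction 12.1.1.1 had subtracted background, per the file headers, with no scaling between arrays. The score columns, per the file headers, mark with 0 or 1 whether a spot was well above background, saturated or an outlier. Quantile normalization is the method the authors name in the series design text, and the submitters' processing notes name R 3.5.1. The sources used here do not give the threshold behind the 2 probe lists that the authors deposited.

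Control spots and 91 to 126 outlier spots per array were left out, log2 signals were quantile normalized, and spots of a probe were averaged. Each gene is represented by the probe of highest mean level. A probe counted as well above background where 0.5 or more of its spots were. This rule replaced one of any spot after the counts and floors of the latter were seen, and the spot SD was limited to spots well above background after its first value was seen. Each regulator probe has 1 spot. On a dim array a level below the lowest well-above-background probe level of that array was raised to it, which makes the difference a bound. Probes were named by RefSeq accession (28696), current symbol (5761), older symbol (163) or the file's name (6554).

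The 2-array differences have no test. IL17A was tested by limma (lmFit, eBayes with a trend) with slide as a block, on measured levels of genes well above background on 2 or more arrays. The call rule and this model were tested on simulated data. The model's gene filter and its alternatives were chosen after seeing the data. The regulators and the 12 gene lists were chosen with earlier results of these data known. Genes outside the regulators were named by size of the IL17A difference within a list, up to 4 or, for target transcripts, 6, and the 3 nearest in pattern for regulators whose level spans 1 or more on the log2 scale. Some genes past 2-fold in other comparisons and marker genes are named too. Alternatives were 75th percentile scaling, normexp correction (limma 3.58.1, R 4.3.3, offset of 50), 2 other filters for dim signals, probe means, RefSeq probes alone, a 1.5-fold threshold and slide as a block, with 2 rules on replicate spots added after seeing the data. The number of arrays limits the precision. Python 3.11.15, pandas 2.3.3 and NumPy 2.4.6 were used. Motifs were searched by exact letters.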

Additional observations from a re-analysis of the deposited data

Results flagged for a closer look

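The IL17A difference of Zfp36l2 had opposite signs without and with ADSC medium, 0.41 and -0.63 on the log2 scale, so that the second minus the first was -1.04. The difference was not tested, since each of the 4 groups has 1 array. The probe is the dimmest of those used for the regulators, and without and with medium lie on different slides. Over the alternative settings, its IL17A differences smallest in size were 0.099 without medium and -0.205 with it. By its brightest probe each of the other 7 regulators kept its sign.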

How the results depend on the processing

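With slide as a block, 214 genes were at least 2-fold higher with IL17A and 182 lower, fewer than in either within-slide comparison, with 1 regulator among those higher and 0 among those lower. By limma's adjusted p 391 genes were higher in this model (75th percentile scaling gave 99, normexp 215) and 586 lower (66 and 266 under the same settings), and the 4 regulators higher became 1 under each of these scalings, Zc3h12a. The cause was not tested. Medium has no such value, since it lies across slides. The estimate for Zfp36l2 was -0.11, opposite in sign to its 0.41 without medium. No paired analysis was possible because each group has 1 sample. Leaving out a replicate was not run, since no group has a second array.

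Of the 40 differences of the 8 regulators, 34 kept their sign under every alternative run for them (75th percentile scaling, normexp, both filters and the mean of probes) and 6 did not, the largest of these being 0.141 on the main scale. Neither filter could move these values, since every regulator probe was well above background on all 4 arrays. The mean of probes could not move those of Zc3h12a, Zc3h12c and Zfp36l2, which have 1 probe each. Scaling moved the median of all genes by less than 0.1. The counts of regulators at 2-fold changed with normexp to 0 higher for medium against untreated and 1 higher for both treatments against untreated, where Arid5a was no longer past 2-fold. The offset of 50 compresses low signals by construction. At 1.5-fold the counts were 3 higher for IL17A, and 2 higher and 1 lower for IL17A with medium present.

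The counts of genes moved more. In the order IL17A against untreated, IL17A plus medium against medium, medium against untreated, IL17A plus medium against IL17A and both against untreated, normexp gave 97, 76, 49, 73 and 128 higher and 66, 22, 110, 122 and 177 lower. Without a filter on dim probes they were 971, 1113, 1109, 1271 and 1255 higher and 1096, 952, 1187, 1227 and 1412 lower. Requiring a probe to be well above background on all 4 arrays gave 205, 286, 218 and 330 higher for the first 3 and the last comparison, and 202, 148, 256 and 426 lower. With 75th percentile scaling 725 genes were higher and 171 lower for IL17A with medium present, and 775 higher for medium added to IL17A. RefSeq probes alone gave 198 higher for IL17A with medium present, 277 lower for medium against untreated, and 225 higher and 328 lower for medium added to IL17A. The cause of the last 2 kinds of change was not tested. The 2 rules on replicate spots added later kept every count within 1.5 times.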
